A study of Mus musculus with 15 samples.

Results

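The T-cell receptor variable (V) segments are the rows of the count table whose names start with Trav or Trbv. There were 163 of them among 48709 genes, 128 Trav rows of the alpha chain and 35 Trbv rows of the beta chain. Whole islets, picked by hand from the collagenase-digested pancreas, came from female NOD/ShiLtj mice, a strain that develops autoimmune diabetes spontaneously. The groups were 4, 6, 8, 10 and 12 weeks of age, with 3 mice each, and no group carried a transgene or received a treatment. The islets were lysed after picking and no T cells were sorted, so each library holds endocrine cells together with whatever lymphocytes stayed attached. The series was made to follow how insulitis, the infiltration of islets by immune cells, builds up with age.

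A T-cell receptor is assembled while the T cell matures in the thymus, where recombination joins 1 of many V segments to a joining segment of the same chain, with a diversity segment between them in the beta chain. The rearranged exon is then spliced to a constant region, Trac for alpha and Trbc1 or Trbc2 for beta. Each T cell and its progeny keep the segments they rearranged, so the V segments read in a tissue reflect which T-cell clones are there. The T cells that enter NOD islets include CD4+ and CD8+ cells that recognise insulin and other beta-cell proteins.

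On GRCm38 the 128 Trav rows lie on chromosome 14 between 52427928 and 53977678, all on the plus strand. The 35 Trbv rows lie on chromosome 6 between 40891229 and 41558452, and 34 of them are on the plus strand. The exception is Trbv31, which lies behind the constant genes in the opposite orientation (chromosome 6, 41557691 to 41558452, minus strand). GENCODE M21 annotates 108 Trav and 22 Trbv rows as V genes and 20 Trav and 13 Trbv rows as V pseudogenes, and it holds all 163 at the table's positions. These are reference sequences of C57BL/6J mice, and NOD alleles may differ from them.

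The ends of the Trbv segments with most counts, Trbv15 and Trbv16, and of the Trav segment with most counts, Trav3-3, show the part that meets the joining segment. Capitals mark the codon of the conserved cysteine at which the third complementarity-determining region, the main contact with the peptide, begins. The stretches are the last 60 bases of the V exon, at chr6:41141599-41141658, chr6:41152171-41152230 and chr14:53666447-53666506, all on the plus strand.
Trbv15: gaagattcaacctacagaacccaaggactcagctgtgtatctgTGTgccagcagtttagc
Trbv16: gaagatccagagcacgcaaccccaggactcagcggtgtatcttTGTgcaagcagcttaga
Trav3-3: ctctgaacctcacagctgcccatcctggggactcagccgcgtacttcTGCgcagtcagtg

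How well reads can be told apart between segments differs by chain. The 3 Trbv13 genes, known in older nomenclature as the Vb8 family, are shown over their last 120 bases (plus strand, chr6:41116349-41116468, chr6:41121713-41121832 and chr6:41130466-41130585), with capitals at the 26 positions where the 3 are not all alike.
Trbv13-1: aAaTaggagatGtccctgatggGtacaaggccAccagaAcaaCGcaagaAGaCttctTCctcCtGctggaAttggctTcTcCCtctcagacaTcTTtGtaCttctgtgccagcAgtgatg
Trbv13-2: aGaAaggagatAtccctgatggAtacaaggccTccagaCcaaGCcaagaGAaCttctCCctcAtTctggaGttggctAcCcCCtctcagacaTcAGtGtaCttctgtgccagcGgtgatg
Trbv13-3: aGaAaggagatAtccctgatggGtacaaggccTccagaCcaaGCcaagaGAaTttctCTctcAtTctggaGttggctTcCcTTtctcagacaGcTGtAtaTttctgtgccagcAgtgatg
The closest pair among all Trbv transcripts, Trbv13-2 and Trbv13-3, was 90.6% identical, and every stretch of 100 bases in each of the 35 was found in no other V segment.

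The Trav locus holds duplicated blocks in the reference, whose copies carry a d (39 rows) or an n (34 rows) after the family number, beside 55 rows with no letter. Of the 128 Trav transcripts, 42 were identical to another member, and 38 held no stretch of 100 bases of their own. Trav6d-7 and Trav6n-7 do not differ at any of 358 bases, as their last 120 show (plus strand, chr14:53007979-53008098 and chr14:53319165-53319284, capitals at the cysteine codon).
Trav6d-7: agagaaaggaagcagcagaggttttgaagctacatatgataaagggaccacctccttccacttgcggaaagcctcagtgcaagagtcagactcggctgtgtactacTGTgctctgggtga
Trav6n-7: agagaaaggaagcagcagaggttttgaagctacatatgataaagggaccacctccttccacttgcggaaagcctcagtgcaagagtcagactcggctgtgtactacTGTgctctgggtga
Trav5-4 and Trav5d-4 differ at 6 of 343 bases, of which 2 fall in the last 120 (plus strand, chr14:53704395-53704514 and chr14:53002113-53002232, capitals at the differing bases).
Trav5-4: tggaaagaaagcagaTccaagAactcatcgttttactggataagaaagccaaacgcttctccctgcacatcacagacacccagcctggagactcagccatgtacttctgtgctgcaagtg
Trav5d-4: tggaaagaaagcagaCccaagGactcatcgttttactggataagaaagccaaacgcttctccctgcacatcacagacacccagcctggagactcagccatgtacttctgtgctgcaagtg
How reads that match several copies were placed is not given in the sources used here, so a count for a single Trav copy is less certain than one for a Trbv segment or a Trav family.

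The libraries held 25407492 to 41616275 counts, and 3 counts corresponded to 0.0754 to 0.128 CPM (counts scaled to library size with TMM factors). V segments were therefore a very small share of each library. Replicate 1 at 4 weeks and replicate 1 at 8 weeks stood apart from the other mice of their age in T-cell RNA. The summed level of 8 T-cell markers (Cd3d, Cd3e, Cd3g, Cd247, Cd2, Cd5, Cd6 and Lck) was 31.8 CPM in the former, against 5.0 and 2.86 CPM in the other 4-week-old mice, and 7.48 CPM in the latter, against 111 and 153 CPM. Replicate 3 at 6 weeks was also high for its age, at 30.5 CPM against 3.29 and 10.4 CPM. Some differences of the sums and some counts of segments called are given with and without replicate 1 at 4 or at 8 weeks. So are 4 of the alpha segments whose counts at 4 weeks came mainly from replicate 1. Other test results include both mice unless stated.

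V-segment RNA was scarce at 4 and 6 weeks and abundant at 10 and 12 weeks. The summed Trbv counts were 59, 8 and 0 in the 3 mice at 4 weeks and 0, 19 and 57 at 6 weeks. They were 17, 247 and 316 at 8 weeks, 839, 1165 and 460 at 10 weeks, and 959, 820 and 1148 at 12 weeks. The 2 mice without any Trbv count could still hold up to 3 counts, or 0.109 CPM at 4 weeks and 0.119 CPM at 6 weeks. All mice at 10 and 12 weeks lay above all younger ones, whereas the 4- and 6-week-old mice overlapped.

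Summed Trav counts were lower and followed the same order of ages. They were 43, 4 and 5 at 4 weeks, 3, 12 and 23 at 6 weeks, and 4, 97 and 162 at 8 weeks. At 10 weeks they were 382, 567 and 181, and at 12 weeks 364, 388 and 540. At 8 weeks replicate 1 was at the level of the younger mice in both chains.

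In CPM, Trbv averaged 0.850 ± 1.19 in the 4-week-old mice, 0.915 ± 1.18 in the 6-week-old, 6.90 ± 5.58 in the 8-week-old, 25.0 ± 8.40 in the 10-week-old and 31.5 ± 4.36 in the 12-week-old ones (SD, n = 3 each). The mean Trav level was 0.654 ± 0.828, 0.447 ± 0.410, 3.13 ± 2.83, 11.4 ± 4.63 and 13.9 ± 2.72 CPM at the same ages. The SD was larger than or close to the mean up to 8 weeks and well under it afterwards. As a difference of mean log2 CPM, Trbv rose by 6.30 and Trav by 4.90 from 4 to 12 weeks. Without replicate 1 at 4 weeks these differences were 7.55 and 5.82. No test was made on the sums, because the segments were put together with earlier results of these data known.

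**Figure D1:**
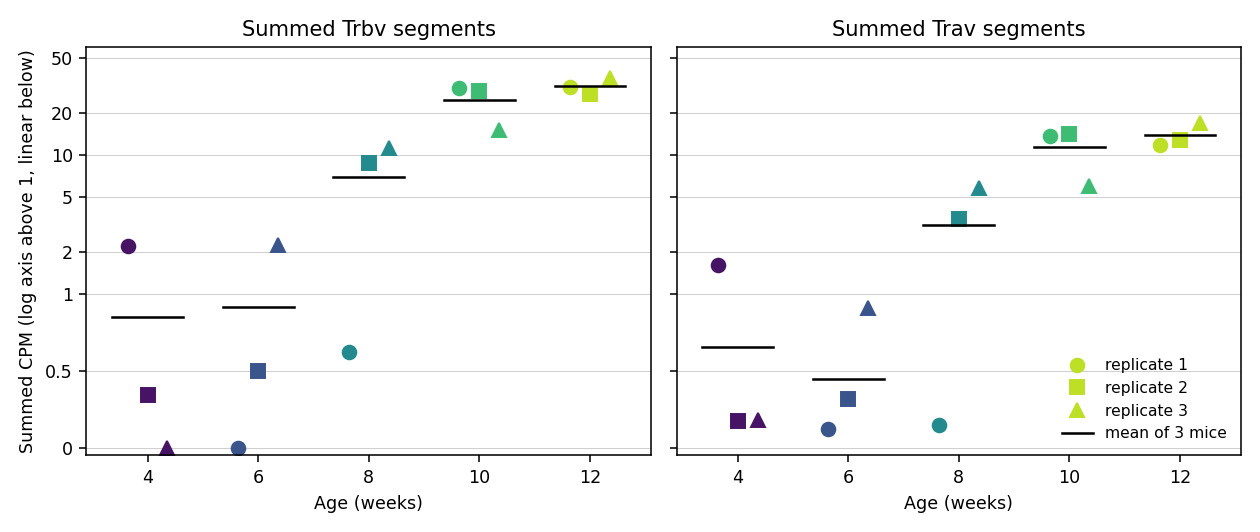
Summed CPM of the Trbv (left) and Trav (right) segments in each of 15 mice by age, on an axis that is logarithmic above 1 and linear below. Symbols stand for the 3 replicates and bars for their mean. Every mouse at 10 and 12 weeks lies above every younger mouse in both panels, and replicate 1 at 8 weeks lies with the younger mice.

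The steps between neighbouring ages were unequal. From 4 to 6 weeks the summed Trbv level differed by 0.16 on the log2 scale and the Trav level by -0.17, both far inside the spread between mice. From 6 to 8 weeks the differences were 3.20 for Trbv and 1.99 for Trav, and without replicate 1 at 8 weeks they were 4.49 and 3.46. From 8 to 10 weeks they were 2.54 and 2.70, and without that mouse 1.25 and 1.23. From 10 to 12 weeks they were 0.39 and 0.37. That single 8-week-old mouse thus decides how the increase is divided between the steps from 6 to 8 and from 8 to 10 weeks. The 6-week-old mice differed too, with 57 Trbv and 23 Trav counts in replicate 3 against 0 to 19 and 3 to 12 in the others. The step from 6 to 8 weeks is not given without replicate 3 at 6 weeks.

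V-segment RNA moved together with the genes it is joined to. In the 8 mice with at least 90 counts of either chain, there were 30.3 to 34.2 Trbv counts per 100 counts of Trbc1 and Trbc2, and 26.7 to 35.4 Trav counts per 100 counts of Trac. In the other mice the Trav ratio ran from 11.1 to 50, but it rested on 3 to 43 Trav counts. The Trbv ratio ran from 0 to 38.1 in them, on 0 to 59 Trbv counts. The Trbv sum was 1.95 to 2.63 times the Trav sum in those 8 mice, and no such comparison is per length. In bulk tissue, fewer T cells and less receptor RNA per T cell cannot be told apart. V segments amounted to 10.2 to 14.4 CPM per 100 CPM of the 8 T-cell markers in the 3 mice at 8 weeks and the 6 older ones, against 3.61 to 12.0 at 4 and 6 weeks.

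Markers of other cells moved with V-segment RNA as well. From 4 to 12 weeks the summed level of 6 B-cell markers went from 4.56 to 8.59 CPM up to 257 to 401 CPM. The sum of 6 markers of lymph node stroma and vessels went from 3.65 to 12.6 up to 337 to 515 CPM, and Chst4, an enzyme of high endothelial venules, was at 0 in all mice at 4 weeks. The sum of 4 markers of naive lymphocytes went from 0.724 to 9.54 up to 202 to 281 CPM. The sum of 6 islet endocrine markers went from 287031 to 321248 down to 139073 to 178742 CPM, and that of 4 acinar markers from 611 to 5331 up to 1545 to 7652 CPM, with overlap. The sum of 4 intestine markers was 69.8 to 77.4 CPM at 4 weeks. At 12 weeks it was 200 CPM in replicate 1 and 40.3 and 47.3 CPM in the others. Fabp2 was at 0 in all mice at 4 weeks. By edgeR 2 of the 3 tested intestine genes were higher at 12 against 4 weeks, Cdh17 (log2 fold change 6.50, adjusted p = 0.00374) and Lgals4 (1.94, adjusted p = 0.0316). Replicate 1 at 12 weeks had the most counts of both. Cdh17 had 1 to 6 counts at 4 weeks and 55 to 952 at 12 weeks. For Lgals4 the counts were 90 to 132 and 129 to 1324. The part of these other cells in the V-segment results was not tested.

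**Figure D2:**
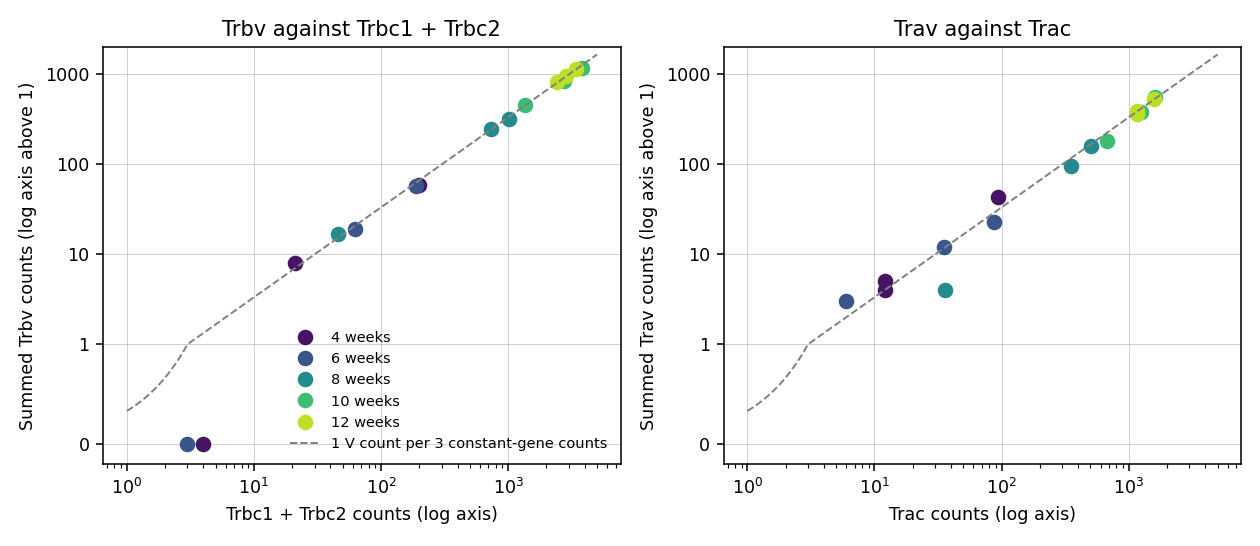
Summed Trbv counts against Trbc1 and Trbc2 counts (left) and summed Trav counts against Trac counts (right), 1 point per mouse, on logarithmic axes (linear below 1 on the vertical). The dashed line marks 1 V count per 3 constant-gene counts, and the 8 mice with at least 90 counts of either chain lie close to it.

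The other genes of the receptor were taken from a list of 21: the constant genes, the CD3 subunits that carry its signal, the coreceptors Cd4, Cd8a and Cd8b1, the proximal kinases Lck and Zap70 with the adaptor Lat, 4 genes of receptor assembly in the thymus and the 4 constant genes of gamma-delta receptors. At 12 against 4 weeks, 18 of the 18 that could be tested rose (edgeR quasi-likelihood test, Benjamini-Hochberg adjusted p under 0.05), with a median log2 fold change of 4.79, beside 26.3% of all genes tested that were called higher. Trac had 93, 12 and 12 counts at 4 weeks, and at 12 weeks it had 1165, 1163 and 1591 (log2 fold change 4.82, SE 0.99, adjusted p = 0.00166 by edgeR). Cd8b1, the beta chain of the CD8 coreceptor, had 27, 2 and 0 counts against 497, 524 and 675 (log2 fold change 5.61, SE 1.17). None of the 18 passed at 10 against 8 weeks by edgeR, where 4 had an unadjusted p under 0.05, beside 37.9% of all genes in either direction. At 8 against 6 weeks none passed by edgeR either, and 15 had an unadjusted p under 0.05, beside 18% of all genes.

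Of the 4 genes of receptor assembly, 3 had few counts. Rag2, a subunit of the recombinase, had 0 counts in all 15 libraries, Rag1, the other subunit, had at most 2, and Ptcra, the surrogate alpha chain of thymocytes, had at most 10. Dntt, the enzyme that adds bases at the joints, was the only one of the 4 to pass the filter on low counts, and it rose from 2, 0 and 0 counts at 4 weeks to 40, 9 and 39 at 12 weeks (log2 fold change 4.98, SE 1.34, adjusted p = 0.00758 by edgeR). The joining and diversity segments have rows of their own, 60 Traj, 14 Trbj and 2 Trbd, and none of them had a count in any library. Variable segments of gamma-delta receptors were rare, with 19 to 67 counts at 10 weeks and 27 to 54 at 12 weeks over 6 gamma rows, and at most 25 over 6 Trdv rows in any mouse. Trdc, the delta constant gene, had more, with 74 to 223 counts at 10 weeks and 126 to 185 at 12 weeks. The names of 10 Trav rows mark segments that can also join the delta chain, so the Trdv rows do not cover all delta V use.

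The number of segments detected followed the number of counts. With at least 1 count taken as detected, 16, 4 and 0 Trbv segments were found at 4 weeks, 0, 8 and 16 at 6, 8, 20 and 19 at 8, 20, 21 and 20 at 10, and 22, 22 and 21 at 12 weeks. For Trav the numbers were 22, 4 and 1 at 4 weeks, 2, 8 and 15 at 6, 3, 39 and 44 at 8, 68, 74 and 48 at 10, and 73, 70 and 73 at 12 weeks. Trbv detection thus came up to the 22 Trbv rows with any count over the 15 libraries, whereas in no mouse did Trav detection reach its 98. With 10 counts as the limit, 18, 18 and 18 Trbv and 11, 9 and 20 Trav segments were detected at 12 weeks, and none of either chain at 4 or 6 weeks.

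**Figure D3:**
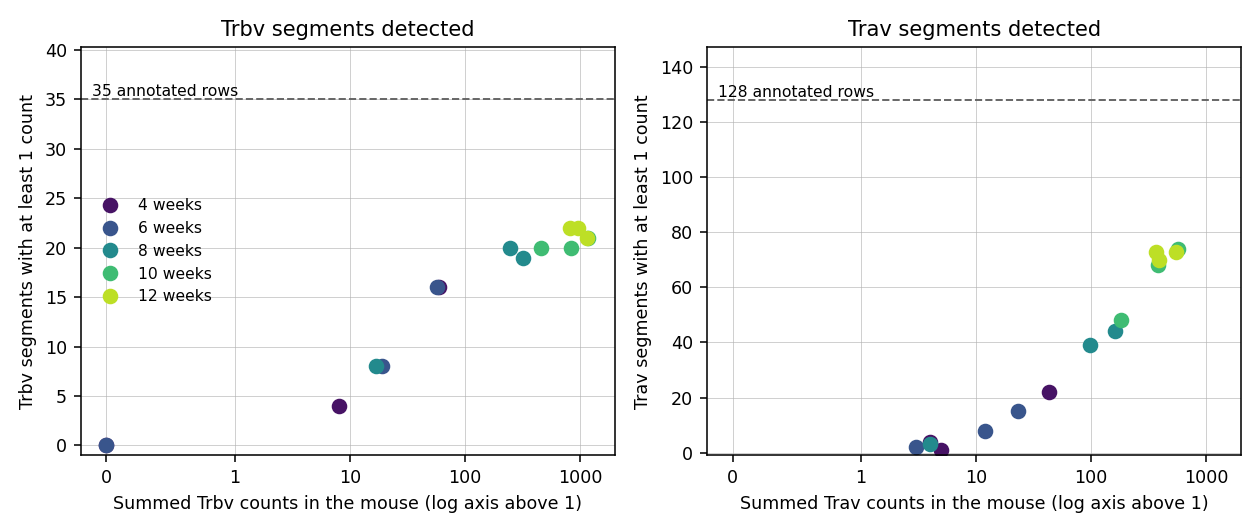
Segments with at least 1 count against the summed counts of the chain, for Trbv (left) and Trav (right), 1 point per mouse, coloured by age. The dashed lines mark the 35 and 128 annotated rows. Trbv levels off at 19 to 22 segments and Trav continues to increase up to 74.

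To compare diversity at equal depth, the expected number of segments was computed for 247 Trbv and 97 Trav counts, the lowest sums among the 8 mice with at least 90 counts of either chain. It was 20 and 19.0 Trbv segments in the 8-week-old mice and ran from 18.6 to 20 at 10 and 12 weeks, so the ages overlapped. For Trav it was 39.0 and 36.5 in the 8-week-old mice, 45.9, 44.6 and 40.4 at 10 weeks, and 46.7, 46.0 and 45.0 at 12 weeks, higher at 12 weeks in 3 of 3 mice than in either 8-week-old mouse. The effective number of segments was taken over all counts of a mouse, not at equal depth, and is lowered by few counts. It (the inverse of the summed squared shares, the number of equally used segments that would give the same evenness) was 9.70 and 13.6 for Trbv at 8 weeks, 14.6 to 15.1 at 10 and 14.1 to 15.3 at 12 weeks. For Trav it was 25.1 and 23.4 at 8 weeks on 97 and 162 counts, 33.4 to 39.4 at 10 weeks and 35.9 to 41.8 at 12 weeks on 181 to 567 counts, so the ages cannot be compared by it. Once the copies of a Trav family were summed, the values were 10.3 and 11.8 families at 8 weeks and 8.66 to 11.5 at 10 and 12 weeks, and the ages overlapped. Whether placement of reads among Trav copies enters the values per segment was not tested.

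Functional segments carried nearly all the counts. Of 22 Trbv genes, 21 had a count in at least 1 library, and of 13 Trbv pseudogenes 1 had, Trbv24, with 19 counts over all mice. Of 108 Trav genes, 95 had a count, and of 20 Trav pseudogenes 3 had. Pseudogenes made up 0.311% of the Trbv and 1.01% of the Trav counts. Trbv23 was the Trbv gene without any count, and Trbv21 had 2 counts, both at 12 weeks.

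The beta chain was spread over many segments, with none dominant in the older mice. Over the 15 libraries, Trbv15 had most counts (600), followed by Trbv16 (561), Trbv5 (484), Trbv3 (450) and Trbv13-1 (442). These pooled counts weight mice unequally, and Trbv15 led through replicate 2 at 8 weeks. In the 6 mice at 10 and 12 weeks, weighted equally, Trbv16 had the higher mean share (9.43%) and Trbv15 followed (8.77%). Per kilobase of exon the order was the same for the first 3, at 1622, 1410 and 1315 counts per kb, with Trbv13-1 (1208) and Trbv13-2 (1188) next. In each mouse at 10 and 12 weeks the leading segment held 9.06 to 13.8% of the Trbv counts and the 5 leading ones 42.3 to 47.2%. The leading segment was Trbv3, Trbv15 and Trbv3 at 10 weeks, and Trbv14 and Trbv5 in replicates 1 and 2 at 12 weeks. In replicate 3 at 12 weeks Trbv15 and Trbv16 tied at 104 counts each.

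Segment shares differed between mice of 1 age by more than counting error. Over the 18 Trbv segments with at least 20 counts, the chi-square per degree of freedom between the 3 mice was 3.57 at 10 weeks and 6.12 at 12 weeks, where counting error of independent reads would give about 1. Reads copied from 1 molecule also raise this value, and their part was not tested. Trbv5 held 13.8% of the Trbv counts in replicate 2 at 12 weeks (95% exact binomial interval 11.5 to 16.3%) and 4.98 to 8.70% in the other 5 mice at 10 and 12 weeks. Trbv14 held 11.1% in replicate 1 at 12 weeks (9.14 to 13.2%) and 3.48 to 7.73% in the others. Both intervals overlapped the next highest mouse's. Trbv15 held 22.7% in replicate 2 at 8 weeks (17.6 to 28.4%), against 6.96 to 11.9% in the 7 other mice with at least 90 counts of either chain. Trbv3 was low in replicate 2 at 12 weeks, at 3.17% (2.08 to 4.61%). These intervals cover counting error only.

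**Figure D4:**
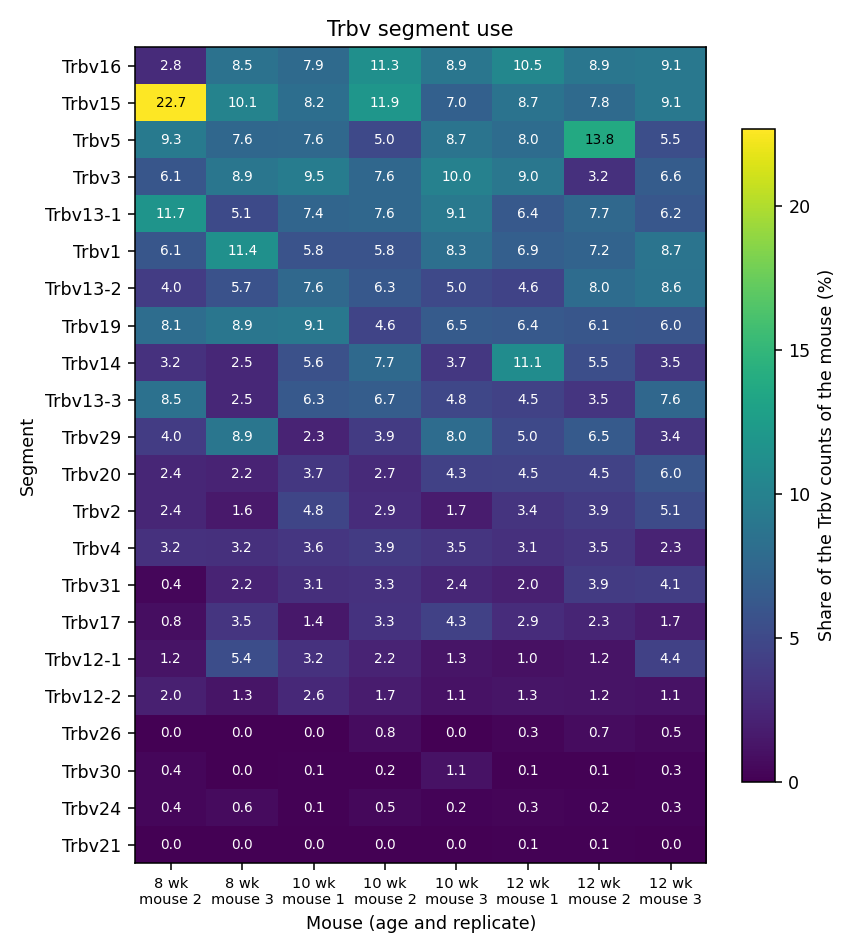
Share of the Trbv counts taken by each of the 22 Trbv segments with a count (rows, ordered by their mean at 10 and 12 weeks) in the 8 mice with at least 90 counts of either chain (columns), in percent. Trbv15 in replicate 2 at 8 weeks (22.7%) and Trbv5 in replicate 2 at 12 weeks (13.8%) are the highest values.

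Trav counts were thinner. Trav3-3 led with 210 counts over all mice (501 per kb), followed by Trav7-3 (95), Trav13-2 (92), Trav8d-1 (90) and Trav15d-1-dv6d-1 (86), whose name marks a segment that can also join the delta chain. Below Trav3-3 this order rested partly on the younger mice. At 10 and 12 weeks Trav15d-1-dv6d-1 had 60 counts, fewer than Trav6d-6 (79) or Trav7-4 (76), and its mean share was 8.14% at 8 weeks (n = 2) and 2.62% at 12 weeks. In the older mice the leading Trav segment held 4.97 to 10.6%. Over the 8 mice, 27.7 to 40.3% of the Trav counts of a mouse fell on d copies, 14.6 to 22.0% on n copies and 42.0 to 55.2% on rows with no letter. Identical copies had similar counts in some pairs, such as Trav6d-7 (56) and Trav6n-7 (45) or Trav5d-4 (39) and Trav5n-4 (38). In Trav11d (12) and Trav11 (3), identical over their shared length, they did not.

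By family, a measure that placement among copies touches less, Trav6 held 13.9 to 22.9% of the Trav counts in the mice at 10 and 12 weeks. In replicate 2 at 10 weeks Trav7 was ahead of it (15.3 against 13.9%), and in replicate 3 at 10 weeks Trav5 was (15.5 against 14.4%). Its mean share was 13.1 ± 6.28% at 8 weeks (SD, n = 2 mice with enough counts), 16.1 ± 3.32% at 10 and 20.7 ± 3.33% at 12 weeks (n = 3 each). The families whose mean share rose most from 8 to 12 weeks were Trav6 (7.60 percentage points), Trav9 (4.48) and Trav7 (2.17). Those that fell most were Trav16, which went from 11.4 ± 1.33% to 4.57 ± 0.41%, Trav15 from 8.96 ± 0.45% to 3.37 ± 1.26%, and Trav2 from 3.71 ± 0.87% to 0.73 ± 0.85%. In the beta chain, Trbv16 went from 5.69 ± 4.04% to 9.50 ± 0.90%, Trbv14 from 2.89 ± 0.50% to 6.68 ± 3.92% and Trbv20 from 2.32 ± 0.15% to 5.0 ± 0.87%. Trbv15 went from 16.4 ± 8.87% to 8.51 ± 0.64%, Trbv19 from 8.48 ± 0.54% to 6.16 ± 0.18% and Trbv12 from 4.94 ± 2.41% to 3.41 ± 1.80%. These are ranks among many families with 2 mice at 8 weeks and were not tested.

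For tests of single segments, filterByExpr kept 32 of the 163 rows (18 Trbv, 14 Trav) among 16554 genes. A V segment passes it mainly through the ages at which it is high, so the counts below speak for these 32 only and are not a result about all members. At 12 against 4 weeks, 30 of the 32 rose (edgeR quasi-likelihood test, Benjamini-Hochberg adjusted p under 0.05), beside 26.3% of all genes tested that were called higher. With a fold change of at least 1.5 and an unadjusted p under 0.05, 31 of 32 were called higher, beside 20.9% of all genes. In 31 of 32 all mice at 12 weeks lay above all at 4 weeks, beside 30.3% of all genes. The median log2 fold change of the 32 was 5.14, against -0.05 over all genes. Since 9 of the 32 had no count at 4 weeks and their fitted values depend on the prior count, the median was also taken with those at their bound of 3 counts over the group, and was then 4.29.

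With the mean log2 CPM of the 8 T-cell markers in each mouse as a covariate, none of the 32 had an adjusted p under 0.05 at 12 against 4 weeks by edgeR, 3 had an unadjusted p under 0.05, and the median log2 fold change was 0.07, with 17 of the 32 estimated higher. Of all genes in that fit, 1.06% were called higher. The summed markers did not overlap between these ages, at 2.86 to 31.8 CPM at 4 weeks and 281 to 396 CPM at 12 weeks. The fit thus has little information to tell age from T-cell level, and no conclusion is drawn from it. When a change at any of the 5 ages was tested jointly, 29 of the 32 passed, beside 56% of all genes. The mice at 4 weeks supplied few counts, mostly through replicate 1, and without that mouse and replicate 1 at 8 weeks together, filterByExpr kept 35 segments. Of these, 34 were called higher at 12 against 4 weeks, beside 24.7% of all genes, and 32 passed in the joint test, beside 48.3% (an alternative chosen after seeing the data). Without replicate 1 at 4 weeks alone, 31 of 35 were called higher, beside 24.6% of all genes, with a median log2 fold change of 6.75 that depends still more on the prior count.

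Among beta segments, Trbv16 had the smallest p at 12 against 4 weeks. It had 3, 0 and 0 counts at 4 weeks and 101, 73 and 104 at 12 weeks. The groups did not overlap, with a log2 fold change of 6.13 (SE 1.12, adjusted p = 0.000875 by edgeR). As a plain ratio of pooled counts scaled for depth it was 77.8 times higher, with a 95% exact counting interval of 26.4 to 380, wide because 3 counts stand on 1 side.

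Trbv4 had 0 counts in the 3 mice at 4 weeks and 30, 29 and 26 at 12 weeks, which is at least 23.8-fold higher (adjusted p = 0.000983 by edgeR). Trbv29 had 3, 0 and 0 counts against 48, 53 and 39 (log2 fold change 5.16, SE 0.97, adjusted p = 0.00103 by edgeR). Trbv20 had 4, 2 and 0 against 43, 37 and 69 (log2 fold change 4.30, SE 0.81, adjusted p = 0.00109 by edgeR). In all 3 of these segments every 12-week-old mouse was above every 4-week-old one.

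The Trbv13 genes, of which Trbv13-2 is used by known islet-reactive T cells, all rose. Trbv13-3 had 2, 0 and 0 counts at 4 weeks and 43, 29 and 87 at 12 weeks (log2 fold change 5.83, SE 1.12, adjusted p = 0.00114 by edgeR). Trbv13-2 had 2, 3 and 0 against 44, 66 and 99 (log2 fold change 5.02, SE 0.97). Trbv13-1 had 3, 0 and 0 against 61, 63 and 71 (log2 fold change 5.63, SE 1.20). The family as a whole held 13.3 to 24.3% of the Trbv counts in the 8 mice with at least 90 counts of either chain, and its mean share was 18.8 ± 7.78% at 8, 20.3 ± 1.23% at 10 and 19.0 ± 3.48% at 12 weeks. These means differed by less than the spread between mice, and no share could be taken at 4 and 6 weeks.

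The most abundant segments rose too, from different starting levels. Trbv15 had 8, 2 and 0 counts at 4 weeks and 83, 64 and 104 at 12 weeks (log2 fold change 4.35, SE 1.09). Trbv5 had 8, 0 and 0 against 77, 113 and 63 (log2 fold change 4.69, SE 1.05). Trbv3 had 2, 0 and 0 against 86, 26 and 76 (log2 fold change 6.08, SE 1.28). Trbv1, which lies at the start of the locus, had 4, 1 and 0 against 66, 59 and 100 (log2 fold change 5.14, SE 0.93). Trbv31, the segment in opposite orientation, had 2, 0 and 0 against 19, 32 and 47 (log2 fold change 5.15, SE 1.10). Adjusted p values of these 5 by edgeR ran from 0.0012 to 0.0052.

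Among alpha segments, Trav8d-1 had 0 counts in the 3 mice at 4 weeks and 12, 9 and 29 at 12 weeks, at least 14.0-fold higher (adjusted p = 0.00387 by edgeR). Trav13-2 had 3, 0 and 0 counts against 8, 14 and 27 (log2 fold change 3.64, SE 0.91, adjusted p = 0.00524 by edgeR). Trav3-3 had 8, 0 and 0 against 12, 38 and 37 (log2 fold change 3.15, SE 1.12, adjusted p = 0.0308 by edgeR). For Trav3-3 the lowest 12-week-old mouse lay close to the highest 4-week-old one, and the other 2 mice at 4 weeks had no count.

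The 3 lowest log2 fold changes among the 32 were all in alpha segments, and the first 2 were those that missed the threshold. Trav5-4 had 4, 0 and 0 counts at 4 weeks and 6, 6 and 10 at 12 weeks (log2 fold change 2.12, SE 0.96, adjusted p = 0.0832 by edgeR). Trav15d-1-dv6d-1 had 4, 1 and 0 against 7, 8 and 21 (log2 fold change 2.51, SE 1.17, adjusted p = 0.0914 by edgeR). Trav7-3 had 5, 0 and 0 against 11, 20 and 17 (log2 fold change 2.94, SE 1.10, adjusted p = 0.0430 by edgeR). In each, the counts at 4 weeks came mainly from replicate 1. Without that mouse the adjusted p by edgeR was 0.0100 for Trav5-4, which then passed, 0.0669 for Trav15d-1-dv6d-1, 0.0153 for Trav7-3 and 0.00836 for Trav3-3. The fitted log2 fold changes were then 5.83, 4.02, 6.95 and 7.80, and apart from Trav15d-1-dv6d-1 none of these 4 had a count left at 4 weeks, so these values depend on the prior count.

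**Figure D5:**
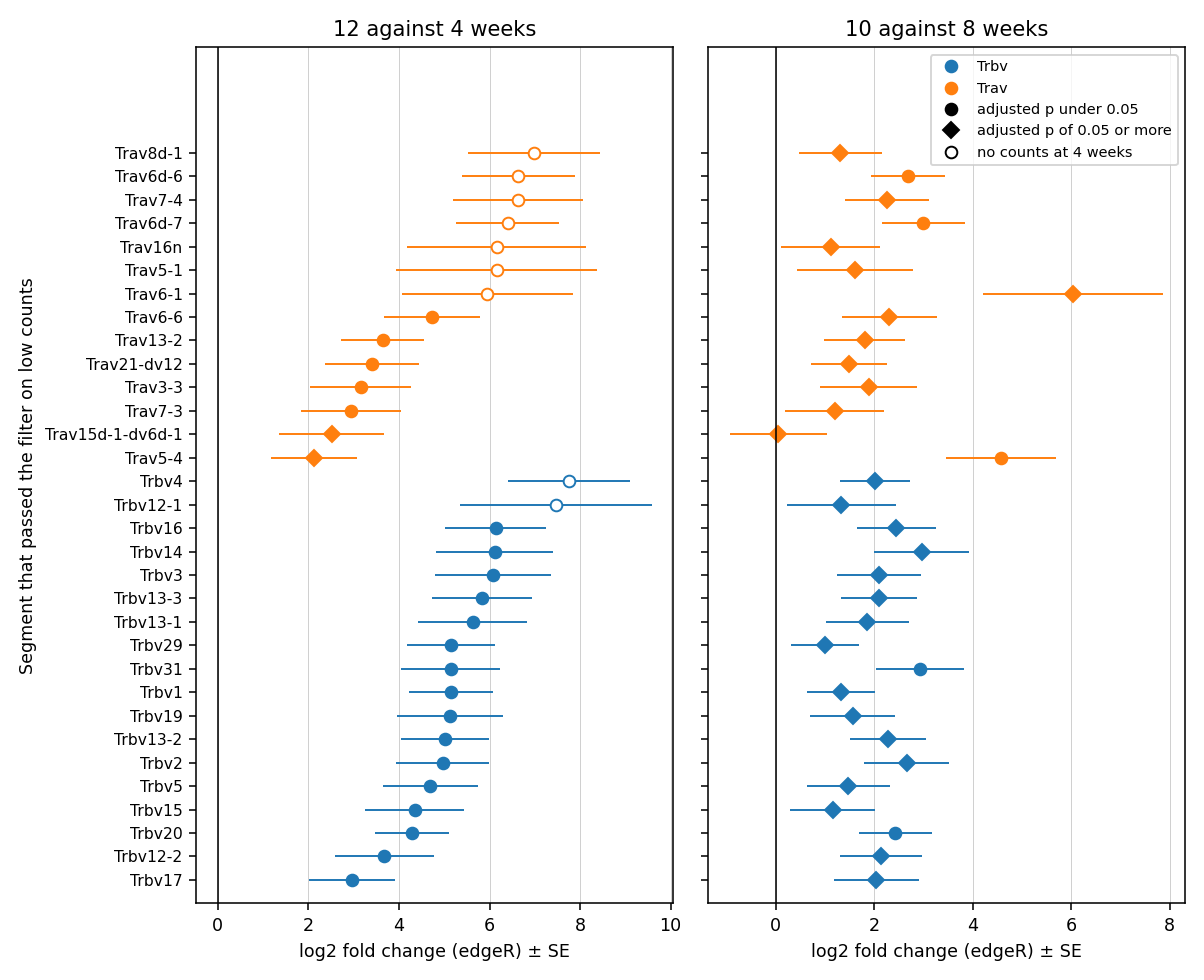
Log2 fold changes with their SE from the edgeR fit for the 32 segments that passed the filter, at 12 against 4 weeks (left) and 10 against 8 weeks (right), with Trbv in blue and Trav in orange. Circles have an adjusted p under 0.05 and diamonds do not, and open symbols had no count at 4 weeks. All 32 lie above 0 on the left, and 30 are circles.

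Between neighbouring ages few single segments passed. At 6 against 4 weeks none of the 32 had an adjusted p under 0.05 by edgeR, beside 0.00604% of all genes called higher, and none had an unadjusted p under 0.05. At 12 against 10 weeks none passed by edgeR, beside 0% of all genes called higher, and none had an unadjusted p under 0.05. At 8 against 6 weeks none passed by edgeR, beside 0% of all genes called higher, but 18 were called higher with a fold change of at least 1.5 and an unadjusted p under 0.05, beside 8.4% of all genes, and DESeq2 called 2 at an adjusted p under 0.05. In 3 of the 32 all 8-week-old mice lay above all 6-week-old mice, beside 7.62% of all genes. Without replicate 1 at 8 weeks, 6 segments passed by edgeR. The share of all genes called is not given for this refit or for DESeq2, so neither count is a result about V segments.

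At 10 against 8 weeks 5 of the 32 were higher with an adjusted p under 0.05 by edgeR, beside 8.4% of all genes called higher. By fold change of at least 1.5 with an unadjusted p under 0.05 there were 19, beside 11.1% of all genes, and in 17 the mice did not overlap, beside 17.2%. The 5 were Trav5-4, Trbv20, Trbv31, Trav6d-7 and Trav6d-6. Trav6d-7 is identical to Trav6n-7, which the filter dropped. Trav6d-6 is identical to Trav6-6, which was higher without passing (log2 fold change 2.31, adjusted p = 0.108 by edgeR). From 8 to 10 weeks the mean share of Trav6d-7 rose from 0.824 to 1.92%, whereas that of Trav6n-7 fell from 2.89 ± 3.21% (SD, n = 2). Whether placement of reads among copies enters the calls of Trav6d-7 and Trav6d-6 was not tested. Trav5-4 had 0, 0 and 1 counts at 8 weeks and 16, 15 and 6 at 10 weeks (log2 fold change 4.58, SE 1.12, adjusted p = 0.0301 by edgeR). Its close copies Trav5d-4, used by known insulin-reactive T cells, and Trav5n-4 were dropped by the filter. Trav5d-4 had 0, 1 and 0 counts at 8 weeks, 7, 9 and 7 at 10 weeks and 6, 6 and 3 at 12 weeks, without overlap between 8 and 10 weeks.

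Trbv20 had 0, 6 and 7 counts at 8 weeks and 31, 31 and 20 at 10 weeks (log2 fold change 2.42, SE 0.74, adjusted p = 0.0442 by edgeR). Trbv31 had 0, 1 and 7 against 26, 38 and 11 (log2 fold change 2.93, SE 0.90, adjusted p = 0.0448 by edgeR). The number of calls at this step hung on single mice. It was 0 without replicate 1 or 2 at 8 weeks and without replicate 1 or 2 at 10 weeks, 8 without replicate 3 at 8 weeks, and 14 without replicate 3 at 10 weeks. The share of all genes called in these refits is not given here.

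V segments used by innate-like T cells were sparse. Trav11 and its copy Trav11d encode the V part of the alpha chain of invariant NKT cells, a lymphocyte that recognises lipids on CD1d. Trav11 had 3 counts over all 15 mice and Trav11d had 12, the latter 0, 0 and 3 at 8 weeks, 0, 0 and 2 at 10 weeks and 2, 1 and 4 at 12 weeks, and neither had a count before 8 weeks. Trav1 encodes the V part of the alpha chain of MAIT cells, which recognise microbial metabolites on MR1. It had no count up to 8 weeks, 4, 1 and 0 counts at 10 weeks and 16, 2 and 2 at 12 weeks. Since no joining segment had a count, these counts cannot be assigned to invariant NKT or MAIT cells. The sum of 3 markers of invariant NKT and innate lymphocytes (Zbtb16, Klrb1c and Ncr1) was 2.13 to 2.58 CPM at 4 weeks and 4.05 to 5.32 CPM at 12 weeks. By edgeR 2 of the 3 were called higher, beside 26.3% of all genes, whereas mean Zbtb16 went from 1.99 to 1.43 CPM.

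Replicate 1 at 12 weeks thus held 16 of the 25 Trav1 counts, and it stood apart in Trav7-1 as well. Trav7-1 had 18 counts of 364 Trav counts in that mouse, a share of 4.95% (95% exact binomial interval 2.96 to 7.70%), against 0 to 4 counts and 0 to 1.05% in the other 5 mice at 10 and 12 weeks. Among 19 Trbv and 44 Trav segments with at least 20 counts in these 6 mice, Trav7-1 was the 1 segment for which the interval of the highest mouse lay above those of all the others. It was picked from these data after its values were seen and carries no test. The same mouse had the highest sum of intestine markers at 12 weeks, 200 CPM against 40.3 and 47.3 CPM in the others. Whether intestinal RNA enters its Trav1 and Trav7-1 counts was not tested.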

How the data were processed

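Islet RNA of 15 NOD females was analysed, 3 mice at each of 5 ages. Per the paper's methods, the authors picked islets by hand, enriched polyadenylated RNA, sequenced read pairs, and trimmed, aligned and counted in CLC Genomics Workbench with default settings. Per the labels the build was mm10 (GRCm38). The values used are the deposited counts, raw reads per gene without normalization. A further 45 per-sample columns (RPKM, TPM and CPM) were not used here. No V(D)J assembly was made, so a count names a V segment, not a clonotype.

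Samples were grouped by the age in their labels. Counts of all genes entered 1 edgeR 4.0.16 fit in R 4.3.3 (filterByExpr, TMM, glmQLFit, a mean per age, no covariate), with glmQLFTest contrasts and Benjamini-Hochberg adjustment over the 16554 genes tested, two-sided. SEs are the log2 fold change over the root of F. The code was tested on simulated data. The members and lists were chosen with earlier results of these data known. Named segments are the 5 Trav and 5 Trbv rows with most counts, at 12 against 4 weeks the 5 smallest p and 3 lowest log2 fold changes, up to 3 of smallest p between neighbouring ages, segments with a textbook role, and the 3 families per chain that rose and fell most. The limit of 90 counts for shares was set after seeing the data.

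A floor of 3 counts over a group bounds folds against 0. Intervals and floors cover counting error only. Between libraries of 1 age, chi-square over its degrees of freedom ran from 15.9 to 127, so none was counted as a duplicate. The samples are separate mice. Identity between members and stretches of 100 bases come from GENCODE M21 transcripts. Alternatives were DESeq2 1.42.0, DESeq2 size factors, library totals, no filter, the 2 ages alone, T-cell markers as a covariate, the replicate number as a block, a prior count of 0.5 for the sums, other detection limits, and leaving out mice.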

Additional observations from a re-analysis of the deposited data

How the results depend on the processing

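The count of segments with an adjusted p under 0.05 at 12 against 4 weeks (30) stayed between 22 and 31 under the scalings, DESeq2, the 2 ages alone and leaving out each mouse (25 to 31), was 55 of 120 with no filter on low counts and 0 with the T-cell markers as a covariate. With that covariate the count of other receptor genes (18) was 0, but 5 of them are among the markers that make up the covariate, so their loss follows from its construction. Of the 13 that are not, 0 passed by edgeR, and the unadjusted p was below 0.05 for 1. In the joint test the count (29) was 51 with no filter and 28 to 34 with each mouse left out. The alternatives for the other receptor genes, those without a mouse in the joint test and those without 2 mice together were chosen after seeing the data. At 10 against 8 weeks the count (5) was 0 with the T-cell markers as a covariate, 0 with the 2 ages alone, 0 without replicate 1 at 4 and at 8 weeks together, and 0 to 14 with each mouse left out. At 8 against 6 weeks the count (0) was 2 by DESeq2, 0 to 6 with each mouse left out and 10 without those 2 mice together. The cause was not tested. Where no share of all genes called is given beside them, these counts show only how calls move with the processing. The T-cell markers rose with age, so counts and directions with them as a covariate cannot tell age from T-cell level. With the replicate block, 27 segments passed at 12 against 4 weeks, 0 at 10 against 8 and 28 in the joint test. Each mouse was sampled at 1 age, and for no pair of ages did all 3 same-numbered pairs of mice deviate together. The correlations of replicates 1, 2 and 3 were -0.50, -0.05 and -0.46 between 4 and 6 weeks, 0.51, -0.12 and 0.49 between 6 and 8, -0.40, 0.09 and -0.44 between 8 and 10, -0.06, -0.15 and -0.25 between 10 and 12, and 0.03, 0.10 and -0.16 between 4 and 12 weeks. The samples were therefore taken to share only a number. The differences of the summed levels moved by less than the SD between mice, pooled over the 2 ages, under every alternative run. With 3 mice per age, leaving out a mouse cannot move a difference by that much. For single mice this comparison therefore shows nothing, and the steps from 6 to 8 and from 8 to 10 weeks did depend on replicate 1 at 8 weeks.

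Alternatives for single segments were run for 12 against 4 and 10 against 8 weeks. At 12 against 4 weeks 198 of 230 alternative values kept direction and call, 25 lost the call, 1 gained it and 6 turned direction. At 10 against 8 weeks 186 of 228 did, 22 lost it, 9 gained it and 11 turned. With the T-cell markers as a covariate, the log2 fold changes that turned were -0.76 (Trbv15), -2.02 (Trav3-3), -3.11 (Trav7-3), -1.99 (Trav15d-1-dv6d-1), -3.34 (Trav5-4) and -1.07 (Trbv31) at 12 against 4 weeks, and at 10 against 8 weeks -0.77 (Trbv15), -0.041 (Trbv5), -0.022 (Trbv13-1), -0.13 (Trav3-3), -1.09 (Trav7-3), -0.29 (Trav8d-1), -1.46 (Trav15d-1-dv6d-1) and -0.057 (Trbv1). The 10 against 8 week value of Trav15d-1-dv6d-1 ran from -0.51 (without replicate 1 at 8 weeks) to 0.85 (without replicate 3 at 8 weeks) and was -0.46 and -0.045 without replicate 1 or 3 at 10 weeks. Scaling by library totals shifted the all-gene median by 0.25 (log2) at 12 against 4 weeks, 0.11 at 10 against 8 and 0.11 at 8 against 6. At 4 and 6 weeks the chains had too few counts for shares, so use of single segments at those ages is not detectable at this depth.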
